A study of Rattus norvegicus with 24 samples.

Results

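Cells of the newborn rat testis were compared after 3 days in a matrix gel culture and as a primary isolate of the same litter. The comparison used 6 of the 24 libraries of the series, 3 of the isolate (called tissue here, as in the labels) and 3 of day 3. A gene was taken into it where at least 3 of these 6 libraries reached 1 CPM, which kept 12791 of the 21425 genes in the deposited table. CPM is the unit of that table, in which the reads of each library are rescaled to a common total. All cells came from wild-type Sprague Dawley rats at postnatal day 5, as the complete cell mixture of the testis with no cell type enriched or removed. For culture they were seeded at 5000000 cells/mL in 4.5 mg/mL Matrigel, a basement membrane extract. The serum-free medium was exchanged by 50% every 24 h, and the baseline groups received no hormone. Both groups came from 1 litter and the 3 libraries per group were technical replicates, so each p-value below measures technical spread and not variation between litters.

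The testis of this age holds seminiferous cords, in which Sertoli cells surround germ cells that are still spermatogonia or their precursors, wrapped by contractile peritubular myoid cells and a basement membrane. Between the cords lie Leydig cells, which make androgens, with fibroblasts, vessels and macrophages. Cells taken out of a tissue are known to switch on immediate early and heat shock genes during handling, and cells held in a gel rebuild contacts and matrix. In bulk RNA, fewer cells of a type and less RNA per cell cannot be told apart, and this holds for every group of genes below.

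Library totals were 21802311 to 30400440 reads in tissue and 18913611 to 27138120 reads at day 3, so that 1 read was worth 0.0329 to 0.0529 CPM. The first principal component held 87.0% of the variance and placed the tissue libraries at 48.8 to 51.4 and the day 3 libraries at -53.0 to -48.4. Day 3 replicate 3 stood apart on the second component (6.3% of the variance), at 25.6 against -6.6 and -18.5 for the other day 3 libraries. In that library 72 genes lay at least 2-fold below both others and 25 at least 2-fold above, and its mitochondrial protein genes took 1.03% of reads against 2.21 and 2.33%. Examples chosen after their values were seen are the long genes Dst, at 1015, 1132 and 413 CPM in day 3 replicates 1, 2 and 3, and Huwe1, at 486, 558 and 226 CPM. Without that library 4388 genes were higher and 4430 lower.

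Of the genes that passed the filter, 62.8% differed between day 3 and tissue beyond the technical spread. On the log2(CPM + 1) scale, where every difference below is given ± SE and was tested with limma at a Benjamini-Hochberg adjusted p under 0.05, 4123 genes (32.2% of those tested) were higher at day 3 and 3908 (30.6%) were lower. By at least 2-fold, 1277 genes (9.98%) were higher and 1056 (8.26%) lower. These shares are the background for every count below, because a group in which about 32.2% rose and 30.6% fell is like the genes at large. The median difference over all genes tested was 0.01, with the middle 50% of genes between -0.44 and 0.48. The genes at least 2-fold higher took 4.24 to 4.38% of the reads of each tissue library and 12.7 to 12.9% at day 3, and those at least 2-fold lower took 9.11 to 9.59% and 2.73 to 2.85%, sets chosen by these same differences.

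**Figure D1:**
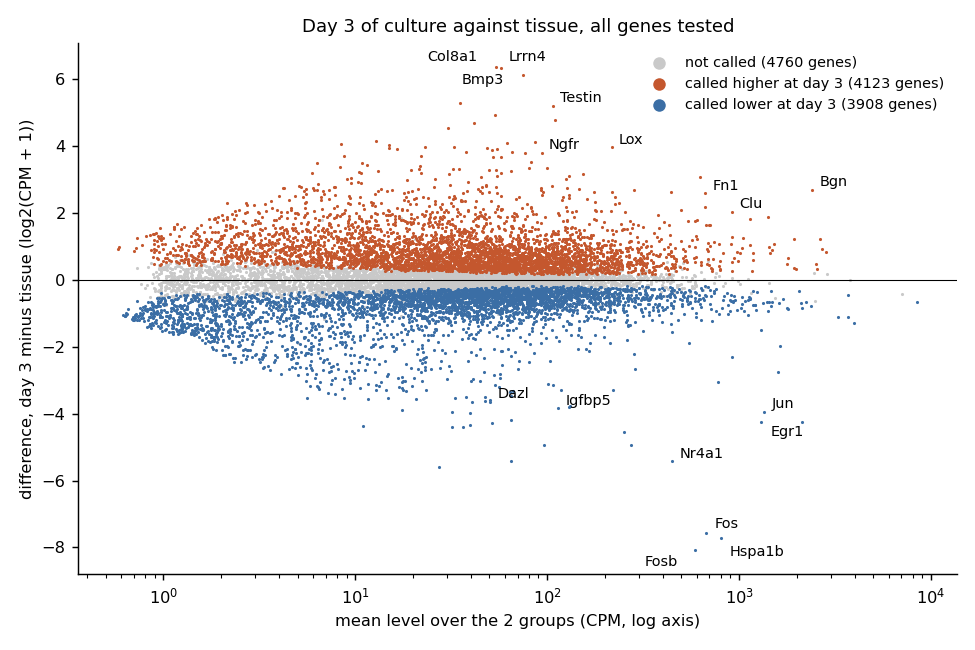
Difference between day 3 and tissue (y axis, log2(CPM + 1)) against the mean level over both groups (x axis, CPM, log axis) for the 12791 genes tested, 1 point per gene, coloured by the limma call. Fos, Fosb and Hspa1b lie at differences below -7 and Col8a1, Lrrn4 and Bmp3 above 6, far outside the range of -0.44 to 0.48 that holds the middle 50% of genes.

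Immediate early transcription factors, genes that cells transcribe within minutes of a stimulus without making new protein first, were far lower at day 3, and Fosb had the lowest difference of the 12791 genes tested. Fosb stood at 1183, 1217 and 1137 CPM in tissue and 3.66, 2.54 and 4.07 CPM at day 3 (log2 difference -8.07 ± 0.13, adjusted p = 4.14e-09). Fos, its relative and a subunit of the AP-1 factor, stood at 1341, 1335 and 1315 CPM in tissue and 7.36, 7.15 and 4.02 CPM at day 3 (log2 difference -7.57 ± 0.17, adjusted p = 2.06e-08). No library of either group came near the other, and the mean of Fos was 215 times higher in tissue. Jun, the partner of Fos, stood at 2549, 2436 and 2640 CPM in tissue and 179.7, 152 and 165 CPM at day 3 (log2 difference -3.94 ± 0.08, adjusted p = 1.32e-08). Jun thus kept far more of its tissue level than Fos, with a mean 15.4 times higher in tissue. Of the immediate early list, 0 of 27 tested members rose and 26 fell, with a median difference of -3.01. Egr1, a zinc finger factor, fell from 2473 ± 81.1 to 132 ± 29.1 CPM (mean ± SD, as throughout) and Nr4a1, an orphan nuclear receptor, from 876 ± 18.9 to 19.5 ± 0.733 CPM. Klf4, Btg2, which restrains proliferation, and Egr4 fell, with differences of -4.94 ± 0.12, -4.55 ± 0.08 and -4.27 ± 0.18. The member that did not pass was Fosl1, another AP-1 subunit, at 6.45, 9.72 and 8.68 CPM in tissue and 5.85, 6.34 and 8.14 CPM at day 3 (adjusted p = 0.254), where the groups overlapped.

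Genes that shut mitogen signalling down, which usually follow ERK activity, did not move as a block. Of this list, 5 of 15 tested members rose and 7 fell. Dusp5, a phosphatase of nuclear ERK, fell from 55.1 ± 1.3 to 7.63 ± 1.49 CPM (log2 difference -2.71 ± 0.13, adjusted p = 8.04e-07) and Errfi1, an inhibitor of the EGF receptor, from 175 ± 8.84 to 32.1 ± 1.81 CPM (log2 difference -2.41 ± 0.08, adjusted p = 1.69e-07). In the other direction Dusp14 rose from 5.53 ± 0.614 to 18.0 ± 2.56 CPM and Spry4, a Sprouty inhibitor, from 47.4 ± 4.38 to 91.5 ± 5.95 CPM, while Spry1 and Dusp4 differed by -0.14 ± 0.11 and 0.13 ± 0.09 and did not pass.

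Heat shock chaperones, which refold damaged proteins, formed the second falling set. Of these, 3 of 27 tested members rose and 20 fell, with a median of -0.92. Hspa1b, the classic stress-inducible chaperone, stood at 1517, 1611 and 1658 CPM in tissue and 5.02, 6.15 and 8.94 CPM at day 3 (log2 difference -7.73 ± 0.16, adjusted p = 1.32e-08). Hspa1a, its near-identical neighbour, stood at 54.6, 50.7 and 58.5 CPM in tissue and 0.377, 0.0369 and 0.0529 CPM at day 3, and how reads were divided between these copies is not known. The constitutive members fell less. Hspa8 went from 2587 ± 24.6 to 660.2 ± 60.5 CPM and Hsp90ab1 from 5645 ± 68.6 to 2306 ± 91.0 CPM, with differences of -1.97 ± 0.09 and -1.29 ± 0.09. Their cochaperones Hsph1 (-2.65 ± 0.10) and Bag3 (-2.19 ± 0.10) and the small chaperone Hspb1 (-1.88 ± 0.08) fell as well. Small chaperones were split, because Cryab rose from 14.1 ± 0.34 to 63.6 ± 2.44 CPM (log2 difference 2.09 ± 0.09, adjusted p = 3.73e-07) and Hspb8, a partner of BAG3, from 0.899 ± 0.403 to 5.35 ± 0.201 CPM (log2 difference 1.76 ± 0.18, adjusted p = 4.38e-05). Serpinh1, the collagen chaperone of the endoplasmic reticulum, rose from 595 ± 59.3 to 1058 ± 251 CPM. Hsf1, the factor that drives the heat shock response, stood at 43.5, 47.4 and 45.2 CPM in tissue and 38.8, 38.4 and 43.7 CPM at day 3 and did not pass (adjusted p = 0.133). Without day 3 replicate 3 it did, at a difference of -0.23.

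**Figure D2:**
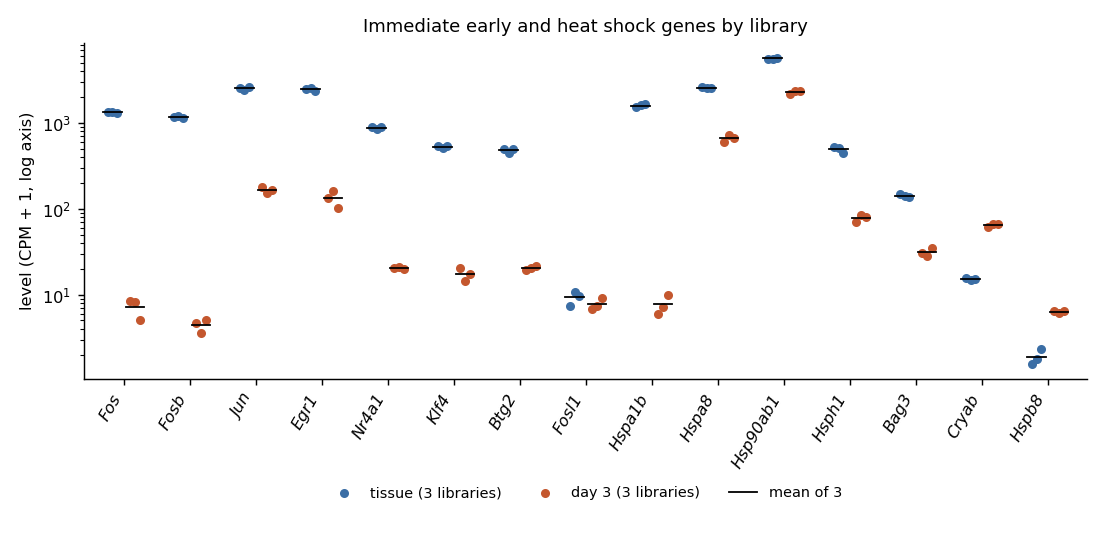
Levels (CPM + 1, log axis) of 15 immediate early and heat shock genes in each library, blue for tissue and orange for day 3, with a black line at the mean of 3 libraries. The groups are apart for each gene drawn except Fosl1, and Cryab and Hspb8 are the only genes drawn that are higher at day 3.

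The promoters of immediate early and heat shock genes were searched for short sequences bound by known regulators. CREB binds the CRE, the serum response factor binds the CArG box, and heat shock factor binds repeats of GAA and TTC. Sequences from 250 bases before to 50 after the start were available for 10030 of the 12791 genes tested (RefSeq, build GRCr8, while the expression table was made on mRatBN7.2). Both strands were searched. The CRE core TGACG was found in 10 of 16 promoters of immediate early genes that fell (62.5%), against 31.7% of all genes tested. It was also in 58.8% of heat shock, 51.9% of DNA replication and 44.4% of mitosis promoters of genes that fell, so this share does not set the immediate early genes apart from the other falling lists. A CArG box was found in 5 of those 16 (31.2%), against 1.31%. A heat shock element, searched as GAA, TTC and GAA or as TTC, GAA and TTC with NN between the units, was found in 6 of 17 promoters of heat shock genes that fell (35.3%), against 0.489% of all genes tested. The full CRE TGACGTCA, which contains the core, was in 3 of the 16 (18.8%, against 3.17%), and the AP-1 motif TGANTCA was in 0 of the 16 (4.7% of all). A match is a description of letters and not a measured binding site, and the windows are short.

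Examples of these motifs can be seen in the 250 bases before the start of genes that fell, chosen as examples after the values were seen and printed 5′ to 3′ on the gene's strand with the matches in capitals. In the first pair the capitals mark the CRE core, which reads CGTCA where it lies on the other strand, and in Egr2 also the CArG box. In the second pair they mark the heat shock element. In Mcm2 they mark E2F motifs, here a match on each strand that overlap, and in Cdc20 and Cdk1 the CHR, both described with the cell cycle genes below.
Nr4a1, chr7:134259888-134260137, + strand: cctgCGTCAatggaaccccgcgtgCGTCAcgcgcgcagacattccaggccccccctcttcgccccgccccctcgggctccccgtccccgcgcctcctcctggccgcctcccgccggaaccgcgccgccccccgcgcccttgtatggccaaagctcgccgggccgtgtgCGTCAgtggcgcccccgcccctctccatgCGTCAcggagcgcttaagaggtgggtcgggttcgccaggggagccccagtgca
Egr2, chr20:21054442-21054691, - strand: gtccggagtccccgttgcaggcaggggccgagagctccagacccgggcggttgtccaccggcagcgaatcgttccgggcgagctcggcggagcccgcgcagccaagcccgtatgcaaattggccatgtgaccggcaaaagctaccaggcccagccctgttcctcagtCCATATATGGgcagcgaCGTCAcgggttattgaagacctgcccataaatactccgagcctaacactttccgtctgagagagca
Hsph1, chr12:10427118-10427367, + strand: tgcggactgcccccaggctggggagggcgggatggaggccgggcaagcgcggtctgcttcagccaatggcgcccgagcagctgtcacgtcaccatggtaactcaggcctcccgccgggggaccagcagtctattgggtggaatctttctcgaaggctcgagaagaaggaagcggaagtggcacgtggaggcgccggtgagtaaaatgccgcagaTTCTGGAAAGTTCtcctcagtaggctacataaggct
Hspa8, chr8:50080264-50080513, + strand: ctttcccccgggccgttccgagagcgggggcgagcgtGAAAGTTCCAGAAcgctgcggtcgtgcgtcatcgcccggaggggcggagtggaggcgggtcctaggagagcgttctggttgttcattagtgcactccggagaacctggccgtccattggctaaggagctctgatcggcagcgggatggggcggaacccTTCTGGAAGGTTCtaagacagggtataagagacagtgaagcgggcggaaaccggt
Mcm2, chr4:122918095-122918344, - strand: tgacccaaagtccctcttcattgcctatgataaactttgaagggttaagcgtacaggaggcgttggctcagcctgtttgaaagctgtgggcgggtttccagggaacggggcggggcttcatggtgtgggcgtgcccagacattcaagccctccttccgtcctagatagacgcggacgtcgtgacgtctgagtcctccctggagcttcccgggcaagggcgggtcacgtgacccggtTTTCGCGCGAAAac
Cdc20, chr5:137255800-137256049, - strand: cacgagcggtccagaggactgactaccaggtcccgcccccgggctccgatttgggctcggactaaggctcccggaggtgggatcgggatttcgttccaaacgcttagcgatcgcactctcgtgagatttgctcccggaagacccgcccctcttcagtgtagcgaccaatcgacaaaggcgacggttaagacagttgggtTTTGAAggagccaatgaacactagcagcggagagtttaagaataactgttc
Cdk1, chr20:19265043-19265292, + strand: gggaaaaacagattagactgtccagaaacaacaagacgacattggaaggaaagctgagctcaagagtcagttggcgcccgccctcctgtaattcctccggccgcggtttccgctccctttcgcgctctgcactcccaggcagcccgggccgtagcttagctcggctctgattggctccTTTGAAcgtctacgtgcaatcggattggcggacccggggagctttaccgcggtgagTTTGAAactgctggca

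Nr4a1 carries 4 copies of the CRE core, at 246, 226, 82 and 53 bases before the start, and had fallen to 19.4, 20.2 and 18.8 CPM at day 3 from 888, 854 and 885 CPM. In Egr2, a relative of Egr1 that fell from 72.3 ± 5.29 to 8.11 ± 0.917 CPM, the CArG box begins 83 bases before the start with a CRE core next to it, at 66. Hspa8 has heat shock elements at 213 and 55 bases before its start and Hsph1 at 36.

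Metallothioneins, which bind zinc and respond to metals and glucocorticoids, fell as well. Mt1 stood at 124, 114 and 127 CPM in tissue and 13.4, 8.73 and 12.1 CPM at day 3 (log2 difference -3.33 ± 0.14, adjusted p = 4.08e-07), and Mt2A and Mt3 fell from 75.5 ± 3.54 to 5.2 ± 0.799 CPM and 80.2 ± 13.8 to 9.12 ± 2.46 CPM. These were the 3 that fell of 7 tested members of the list, in which 2 rose: Mtf1, the zinc-sensing factor (1.05 ± 0.17), and the zinc importer Slc39a14 (0.50 ± 0.08). Of circadian and glucocorticoid-responsive genes, 5 of 26 tested members rose and 14 fell. Among them Klf9, Per2 and Nfil3 fell, with differences of -1.71 ± 0.17, -1.64 ± 0.11 and -1.64 ± 0.07, while the glucocorticoid receptor gene Nr3c1 rose (0.40 ± 0.08). The clock factor Bmal1 stood at 35.0, 33.4 and 33.0 CPM in tissue and 35.8, 35.9 and 34.5 CPM at day 3 (adjusted p = 0.516), and its groups overlapped.

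Amino acid stress genes driven by ATF4 moved both ways, as 11 of 23 tested members rose and 8 fell. Slc7a11, the cystine importer, rose from 0.71 ± 0.138 to 6.64 ± 1.37 CPM (log2 difference 2.15 ± 0.18, adjusted p = 1.27e-05) and Aldh1l2, a mitochondrial folate enzyme, from 2.42 ± 0.31 to 12.3 ± 1.53 CPM. The factor itself, Atf4, fell from 556 ± 7.21 to 234 ± 22.9 CPM (log2 difference -1.25 ± 0.08, adjusted p = 4.34e-06) with Cebpb (-1.84 ± 0.13) and Asns, the asparagine synthetase (-0.93 ± 0.08). In the endoplasmic reticulum, 11 of 22 tested members rose and 4 fell. Edem1 and Sel1l, which remove misfolded proteins from this compartment, rose from 45.4 ± 1.01 to 133 ± 11.1 CPM and 96.3 ± 6.83 to 243 ± 28.2 CPM, while Hspa5, its main chaperone, fell from 1593 ± 50.1 to 854 ± 32.5 CPM (log2 difference -0.90 ± 0.08, adjusted p = 1.51e-05). Of antioxidant genes, 10 of 25 tested members rose and 9 fell, beside 32.2 and 30.6% of all genes. Sod3, which acts outside cells, stood at 68.2, 66.0 and 68.4 CPM in tissue and 199, 208 and 202 CPM at day 3 (log2 difference 1.57 ± 0.07, adjusted p = 3.58e-07), and Nqo1 rose from 4.65 ± 0.692 to 15.2 ± 3.2 CPM, while Gstm1 fell from 359 ± 6.57 to 209 ± 13.1 CPM.

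Inflammatory genes moved both ways, while tested members of the interferon list rose or did not pass. Of NF-kB targets and cytokines, 7 of 22 tested members rose and 12 fell. The neutrophil chemokine Cxcl1 stood at 13.3, 10.9 and 12.4 CPM in tissue and 0.604, 0.221 and 0.582 CPM at day 3 (log2 difference -3.18 ± 0.17, adjusted p = 1.12e-06), under 1 CPM in each day 3 library. Nfkbiz, an inducible regulator of NF-kB, fell from 40.8 ± 5.63 to 5.54 ± 1.5 CPM and the interferon-induced chemokine Cxcl10 from 11.9 ± 1.02 to 3.46 ± 0.722 CPM. Csf1, the growth factor of macrophages, rose from 12.0 ± 0.616 to 44.7 ± 4.49 CPM (log2 difference 1.81 ± 0.11, adjusted p = 2.52e-06), and Relb and Nfkb2, the non-canonical pair of NF-kB subunits, rose by 1.18 ± 0.10 and 0.81 ± 0.12. Of interferon-stimulated and antigen presentation genes, 9 of 17 tested members rose and 0 fell. B2m, the light chain of class I molecules, stood at 225, 189.9 and 209 CPM in tissue and 691, 602 and 680.2 CPM at day 3 (log2 difference 1.66 ± 0.09, adjusted p = 1.3e-06). The groups did not overlap, and Stat2 (1.05 ± 0.09), Ifit2 (1.62 ± 0.16) and the immunoproteasome subunits Psmb8 (1.53 ± 0.31) and Psmb9 (0.85 ± 0.17) rose with it. Bst2 and Gbp2, also interferon-stimulated, differed by 0.20 ± 0.14 and 0.17 ± 0.11 and did not pass, though Gbp2 did without day 3 replicate 2 (0.28).

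Genes of the ribosome and the respiratory chain fell. For the cytosolic ribosome, 0 of 25 tested members rose and 21 fell, with a median of -0.60, and for its assembly, 0 of 20 tested members rose and 17 fell, with a median of -0.85. Rpl3 stood at 2354, 2132 and 2533 CPM in tissue and 1218, 1222 and 1375 CPM at day 3 (log2 difference -0.88 ± 0.10, adjusted p = 7.72e-05), and Npm1, a nucleolar assembly chaperone, at 1185, 1184 and 1160 CPM in tissue and 563, 582 and 589 CPM at day 3 (log2 difference -1.02 ± 0.07, adjusted p = 4.26e-06). Reads of ribosomal protein genes can be shared with their processed pseudogenes, so their levels are uncertain. Day 3 replicate 3 was closer to tissue than the other day 3 libraries in some of these, as in Rpl13, at 1336, 1034 and 1378 CPM in tissue and 670.3, 486 and 916 CPM at day 3, and in the nucleolar methyltransferase gene Fbl, at 50.5, 50.0 and 82.8 CPM against 128, 119.7 and 139.7 CPM in tissue. Of nuclear genes of the respiratory chain, 0 of 24 tested members rose and 16 fell, with a median of -0.33. Atp5f1b, the catalytic subunit of the ATP synthase, fell from 1699 ± 146 to 1078 ± 87.7 CPM (log2 difference -0.66 ± 0.10, adjusted p = 0.000428).

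Of the protein genes of the mitochondrial genome, 0 of 13 tested members rose and 5 fell. Their summed level was 24450 to 34600 CPM in tissue and 10330 to 23280 CPM at day 3, and the low end at day 3 was replicate 3 alone. Mt-atp6 stood at 3751, 5598 and 3872 CPM in tissue and 2524, 2589 and 1241 CPM at day 3 (log2 difference -1.11 ± 0.28, adjusted p = 0.00753), and Mt-co1 at 6904, 9472 and 7112 CPM in tissue and 8516, 7081 and 3267 CPM at day 3 (adjusted p = 0.286). Mt-atp6 was lower in each day 3 library, while Mt-co1 overlapped between the groups. Without day 3 replicate 3 the list had 6 members lower and 2 higher, without day 3 replicate 2 it had 8 lower, and without tissue replicate 2 or 3 it had 3 lower.

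DNA replication and mitosis genes fell in nearly every member. For replication, 1 of 36 tested members rose and 33 fell, with a median of -0.80, and for mitosis and the spindle, 0 of 35 tested members rose and 32 fell, with a median of -0.72. Mcm2, a subunit of the replicative helicase, stood at 349.5, 369 and 364 CPM in tissue and 155, 137 and 160.5 CPM at day 3 (log2 difference -1.25 ± 0.08, adjusted p = 2.87e-06). Rfc4 of the clamp loader and Gins1 of the helicase fell, with differences of -1.32 ± 0.11 and -1.28 ± 0.10. Ccne2, a cyclin that opens S phase, was the member that rose (0.42 ± 0.12), a call lost without tissue replicate 1 (0.38) or 3 (0.38). Bub1, a kinase of the spindle checkpoint, stood at 167, 187 and 172 CPM in tissue and 66.6, 72.5 and 63.1 CPM at day 3 (log2 difference -1.37 ± 0.08, adjusted p = 2.24e-06). Mki67, the proliferation marker, fell from 327 ± 30.0 to 176 ± 61.6 CPM (log2 difference -0.96 ± 0.24, adjusted p = 0.00705), with the lowest value in day 3 replicate 3 at 106 CPM against 203 and 220 CPM. Day 3 levels of these genes stayed well above the filter of 1 CPM. Tpx2 and Anln, of the spindle and of cell division, differed by 0.10 ± 0.09 and 0.02 ± 0.16 and did not pass.

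The promoters of the 2 cell cycle lists differed in the motifs they hold. The E2F motif TTTGGCGC or TTTCGCGC, bound by the factors that open S phase, was in 13 of 27 promoters of replication genes that fell (48.1%), in 1 of 27 of mitosis genes (3.70%) and in 1.5% of all genes tested. The CHR motif TTTGAA, through which the DREAM complex is known to hold back mitotic genes, was in 19 of 27 promoters of mitosis genes that fell (70.4%), in 2 of 27 of replication genes (7.41%) and in 11.6% of all genes tested. In the printed sequences the E2F matches of Mcm2 begin 14 and 10 bases before the start. The CHR of Cdc20, an activator of the anaphase complex that fell from 149 ± 4.76 to 74.1 ± 5.32 CPM, lies 51 bases before the start. Cdk1, the mitotic kinase, has it at 72 and 16 and fell from 110.4 ± 1.13 to 80.1 ± 2.87 CPM. Mcm2 and Cdk1 each hold both motifs, with the second left in small letters in the printed sequences. Mcm2 has 2 CHR matches and is 1 of the 2 replication promoters with a CHR. Cdk1 has 1 E2F match and is the mitosis promoter with that motif.

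Inhibitors of the cell cycle and p53 targets moved both ways, as 11 of 25 tested members rose and 10 fell. Cdkn2b, an inhibitor of the G1 kinases CDK4 and CDK6 and a known TGF-beta target, stood at 9.69, 9.36 and 8.62 CPM in tissue and 102, 85.4 and 110.4 CPM at day 3 (log2 difference 3.29 ± 0.12, adjusted p = 2.06e-07). Cdkn1a, the inhibitor p21, stood at 19.7, 18.9 and 17.9 CPM in tissue and 54.5, 42.9 and 71.1 CPM at day 3 (log2 difference 1.50 ± 0.17, adjusted p = 6.97e-05). Both were higher in each day 3 library. The p53 targets Phlda3, Ccng1 and Tp53inp1 rose from 20.9 ± 3.12 to 122 ± 27.6 CPM, 57.9 ± 2.08 to 219 ± 5.99 CPM and 9 ± 1.44 to 37.1 ± 4.33 CPM. In contrast Plk3, Plk2 and Gadd45a, stress-inducible members of the same list, fell, with differences of -2.56 ± 0.10, -2.05 ± 0.09 and -2.27 ± 0.13, and Cdkn1c, an imprinted inhibitor, fell from 17.6 ± 3.36 to 5.5 ± 0.366 CPM.

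**Figure D3:**
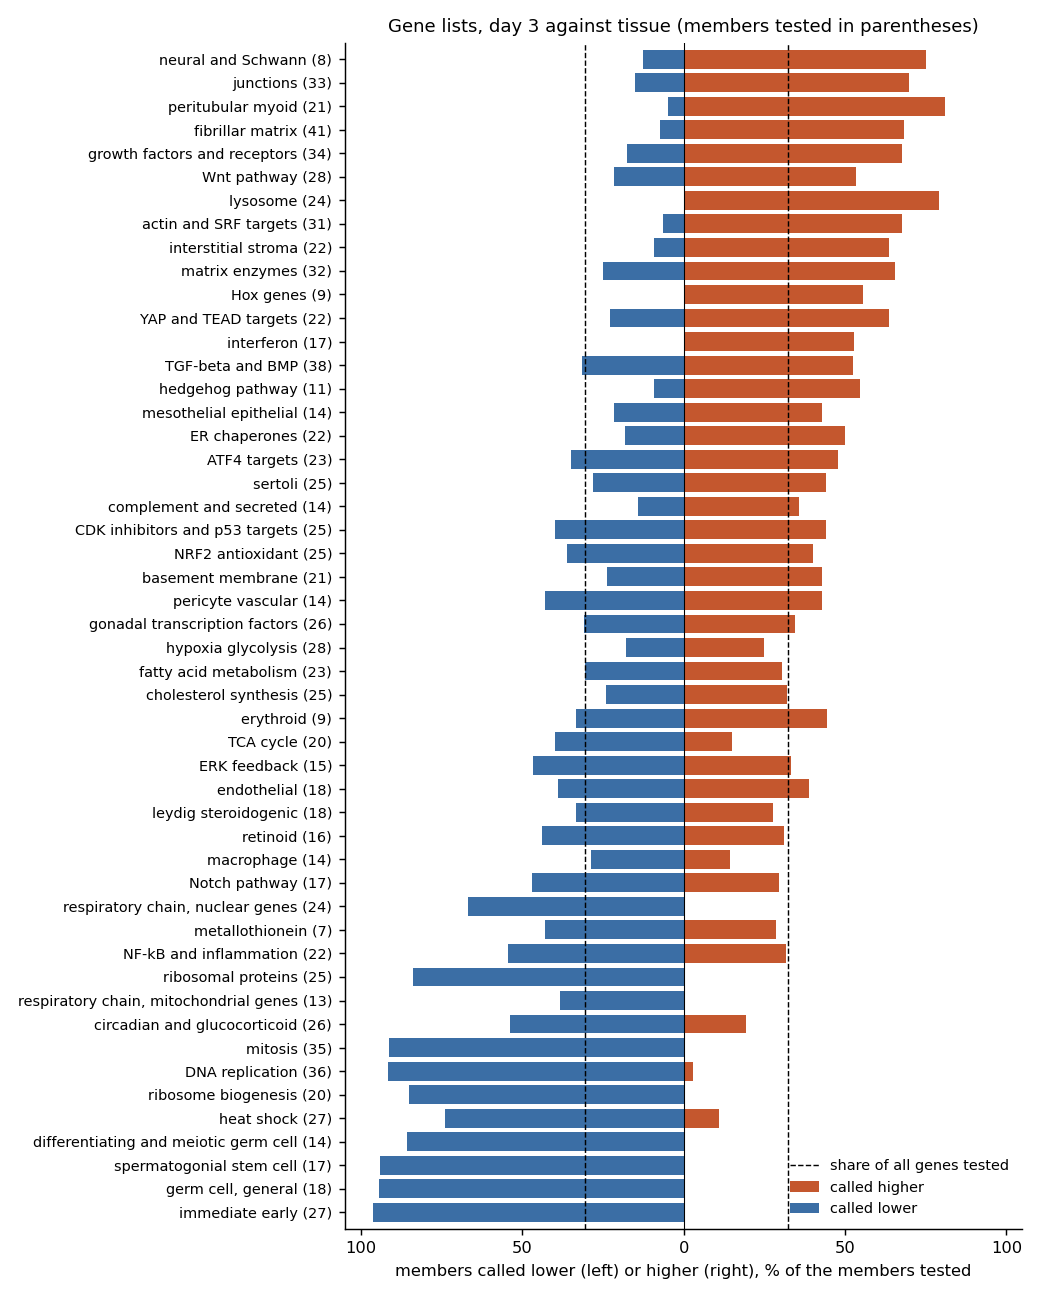
Share of tested members called higher (orange, right) or lower (blue, left) at day 3 for each list with at least 5 tested members, ordered by the list's median difference, with dashed lines at the shares over all genes tested (32.2 and 30.6%). Immediate early, germ cell, ribosome assembly and cell cycle lists have 85.0 to 96.3% of their members lower, and peritubular myoid, lysosome and matrix lists reach far past the dashed line on the right.

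Markers of germ cells fell, with 4 exceptions that did not pass. Of general germ cell genes, 0 of 18 tested members rose and 17 fell, with a median of -2.78. Of genes of undifferentiated spermatogonia, 0 of 17 tested members rose and 16 fell (-1.97), and of differentiating and meiotic germ cells, 0 of 14 tested members rose and 12 fell (-1.88). Under a filter of 5 CPM, 6 differentiating and meiotic members fell. The summed level of the general markers was 523 to 621 CPM in tissue and 53.2 to 84.7 CPM at day 3. Ddx4, the germ cell RNA helicase, stood at 38.5, 40.3 and 38.1 CPM in tissue and 0.83, 3.69 and 3.65 CPM at day 3 (log2 difference -3.55 ± 0.33, adjusted p = 2.4e-05). Dazl, a translational regulator of germ cells, stood at 90.1, 97.9 and 93.3 CPM in tissue and 2.9, 9.29 and 9.78 CPM at day 3 (log2 difference -3.65 ± 0.34, adjusted p = 2.49e-05). Both were several times lower in day 3 replicate 1 than in replicates 2 and 3, yet far below tissue in each. Members of the stem cell list did not fall alike. Pou3f1, a POU factor that responds to GDNF, stood at 78.3, 72.9 and 78.8 CPM in tissue and 4.26, 1.88 and 2.64 CPM at day 3 (log2 difference -4.35 ± 0.20, adjusted p = 5.57e-07). Epcam, a surface protein of spermatogonia, stood at 33.1, 28.7 and 35.9 CPM in tissue and 1.09, 2.47 and 4.39 CPM at day 3. Gfra1, the GDNF receptor, stood at 20.1, 22.7 and 18.1 CPM in tissue and 5.09, 4.97 and 3.38 CPM at day 3 (log2 difference -1.97 ± 0.17, adjusted p = 1.47e-05). The mean of Gfra1 was 4.53 times higher in tissue and that of Pou3f1 26.2 times.

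Kit, the receptor that marks differentiating spermatogonia and is also made by Leydig cells, stood at 28.7, 34.1 and 35.2 CPM in tissue and 28.8, 31.5 and 24.9 CPM at day 3 and did not pass (adjusted p = 0.185). Stra8, switched on by retinoic acid at the entry to meiosis, was under the filter of 1 CPM. The other members that did not pass were Foxo1 (-0.34 ± 0.14), Ybx2 (-0.41 ± 0.29) and Ythdc2, an RNA helicase needed for meiosis. Ythdc2 stood at 11.7, 15.5 and 10.99 CPM in tissue and 15.9, 17.5 and 10.4 CPM at day 3 (adjusted p = 0.489), and without day 3 replicate 3 it was called higher, at 0.38. Smc1b of the meiotic cohesin fell from 30.0 ± 1.68 to 3.18 ± 1.03 CPM (log2 difference -2.92 ± 0.18, adjusted p = 2.97e-06) and the axis protein gene Hormad1 from 6.69 ± 0.256 to 0.3 ± 0.19 CPM. Dmc1, a meiotic recombinase, stood at 4.12, 5.32 and 5.56 CPM in tissue and 0, 0.147 and 0.106 CPM at day 3, with 0 reads in day 3 replicate 1. It passed the filter of 1 CPM through the tissue libraries alone.

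Sertoli cells, the somatic cells of the cords, were represented by markers that moved both ways, as 11 of 25 tested members rose and 7 fell. Clu, or clusterin, an abundant secreted product, stood at 360.5, 356 and 359 CPM in tissue and 1467, 1473 and 1490 CPM at day 3 (log2 difference 2.04 ± 0.07, adjusted p = 1.69e-07). Amh, the anti-Müllerian hormone of immature Sertoli cells, stood at 251, 209.9 and 233 CPM in tissue and 458, 552 and 645 CPM at day 3 (log2 difference 1.24 ± 0.12, adjusted p = 4.23e-05). The tight junction gene Cldn11 (1.76 ± 0.10), the germ cell growth factor gene Kitlg (1.72 ± 0.10) and Wnt4 (2.80 ± 0.10) rose as well. Testin, a Sertoli cell product that is known to rise when contacts with germ cells are broken, stood at 5, 5.73 and 3.45 CPM in tissue and 229, 183 and 216 CPM at day 3 (log2 difference 5.21 ± 0.16, adjusted p = 1.1e-07). Its lowest day 3 library lay far above its highest tissue library. Dmrt1, which maintains male identity, fell from 156 ± 8.34 to 73.9 ± 17.6 CPM (log2 difference -1.09 ± 0.14, adjusted p = 0.000197), and Inha, the inhibin alpha subunit, from 826 ± 53.6 to 598 ± 52.0 CPM. Fshr, the receptor for FSH, stood at 27.4, 32.6 and 28.7 CPM in tissue and 22.1, 29.5 and 18.0 CPM at day 3 and did not pass (adjusted p = 0.0912), though it did without day 3 replicate 2 (difference -0.54) and in the fit with a replicate block. Nr5a1, a master factor of steroidogenic and Sertoli cells, stood at 214, 212 and 213 CPM in tissue and 209.6, 209 and 244 CPM at day 3 (adjusted p = 0.609).

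Transcription factors of the gonad showed single large changes within a list near the background, as 9 of 26 tested members rose and 8 fell. Nr0b1, or DAX1, a repressor of Nr5a1, stood at 61.7, 54.7 and 66.8 CPM in tissue and 2.23, 3.83 and 3.17 CPM at day 3 (log2 difference -3.94 ± 0.17, adjusted p = 3.58e-07). Foxl2, known as the factor that maintains granulosa cells of the ovary, stood at 0.439, 0.504 and 0.132 CPM in tissue and 10.1, 13.3 and 11.2 CPM at day 3 (log2 difference 3.21 ± 0.17, adjusted p = 1.45e-06), under 1 CPM in each tissue library and over 10 at day 3. Sox9 rose from 102 ± 4.43 to 185 ± 7.13 CPM and Gata4 from 856 ± 45.8 to 1493 ± 56.0 CPM, while Crem, a cAMP-responsive factor, fell from 111 ± 5.37 to 24.4 ± 1.47 CPM.

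The Leydig cell list was near the background, as 5 of 18 tested members rose and 6 fell, beside 32.2 and 30.6% of all genes. Cyp17a1, which turns progestins into androgens, stood at 13.0, 13.0 and 10.8 CPM in tissue and 0.717, 0.258 and 0.37 CPM at day 3 (log2 difference -3.21 ± 0.17, adjusted p = 1.21e-06). Hsd17b3, which makes testosterone, stood at 46.7, 48.4 and 47.6 CPM in tissue and 16.98, 13.1 and 18.0 CPM at day 3 (log2 difference -1.52 ± 0.12, adjusted p = 1.31e-05). Scarb1, which takes up cholesterol, stood at 209, 221 and 219 CPM in tissue and 75.6, 86.1 and 67.6 CPM at day 3 (log2 difference -1.50 ± 0.09, adjusted p = 2.99e-06). These 3 genes were lower in each day 3 library than in any tissue library. Cyp11a1, the cholesterol side-chain cleavage enzyme, stood at 13.5, 14.6 and 18.7 CPM in tissue and 14.1, 10.2 and 12.1 CPM at day 3 and did not pass. Star, which brings cholesterol into mitochondria, rose from 7.6 ± 0.212 to 12.5 ± 3.84 CPM (0.61 ± 0.20), a call lost without day 3 replicate 1 (0.41) or without tissue replicate 1, 2 or 3 (0.60 to 0.63). Lhcgr, the LH receptor, fell from near the filter, at 1.01, 1.28 and 1.25 CPM in tissue and 0.113, 0.111 and 0.0529 CPM at day 3. Insl3, a peptide hormone of Leydig cells, rose from 5.04 ± 0.324 to 30.9 ± 5.08 CPM, and this value is uncertain, since its locus overlaps B3gnt3 and the libraries carry no strand.

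Interstitial and contractile markers rose. For interstitial stroma, 14 of 22 tested members rose and 2 fell, and for peritubular myoid cells, 17 of 21 tested members rose and 1 fell, with medians of 0.62 and 0.96. The summed level of the myoid markers was 5030 to 5537 CPM in tissue and 10270 to 10810 CPM at day 3. Acta2, smooth muscle actin, stood at 778, 689 and 761 CPM in tissue and 1387, 1528 and 1714 CPM at day 3 (log2 difference 1.05 ± 0.10, adjusted p = 2.8e-05). Tagln, an actin-binding protein of smooth muscle, stood at 201, 169 and 195 CPM in tissue and 748, 728 and 957 CPM at day 3. All day 3 libraries were above all tissue libraries in both, and the filament protein gene Synm rose from 10.99 ± 1.6 to 80.8 ± 7.22 CPM. Myh11, the smooth muscle myosin that marks mature myoid cells, stood at 395, 360.4 and 379 CPM in tissue and 394, 459 and 306 CPM at day 3 (adjusted p = 0.936) and did not rise with them. In the stroma, Thy1, a surface marker of mesenchymal progenitors, stood at 1.49, 0.78 and 1.68 CPM in tissue and 22.6, 17.4 and 20.6 CPM at day 3 (log2 difference 3.21 ± 0.19, adjusted p = 2.08e-06), and Pdgfra, the stromal PDGF receptor, rose from 211 ± 18.4 to 381 ± 63.7 CPM. Dpt, a matrix protein of fibroblasts, fell from 11.03 ± 2.56 to 1.83 ± 0.325 CPM.

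Vascular and blood cell markers were mixed. In the pericyte list, 6 of 14 tested members rose and 6 fell, where Pdgfrb rose from 79.9 ± 5.38 to 278 ± 18.8 CPM and Steap4, an iron reductase, from 0.772 ± 0.255 to 29.3 ± 12.0 CPM, while Rgs5, a defining pericyte gene, fell from 4.56 ± 0.237 to 1.45 ± 0.908 CPM. With a filter of 5 CPM 3 members fell. In the endothelial list, 7 of 18 tested members rose and 7 fell. Kdr, the VEGF receptor, rose from 8.95 ± 1.31 to 47.8 ± 7.62 CPM (log2 difference 2.29 ± 0.15, adjusted p = 3.71e-06) and Eng from 68.1 ± 3.12 to 289 ± 28.6 CPM, while the endothelial kinase Tie1 fell from 4.52 ± 0.506 to 0.461 ± 0.443 CPM and the factor Sox18 from 34.4 ± 3.46 to 8.13 ± 4.64 CPM. Eng is also made by stromal cells, and with a filter of 5 CPM 3 endothelial members fell. In the macrophage list, 2 of 14 tested members rose, 1 of them by at least 2-fold, and 4 fell. The summed level was 100 to 118 CPM in tissue and 48.2 to 90.1 CPM at day 3. Without day 3 replicate 3 there were 7 that fell and 1 that rose. The count that rose was 0 with a filter of 5 CPM. It was 1 in the fits with all 12 baseline libraries, edgeR or a replicate block, in which Cd68, called higher in the main fit, did not pass. Tyrobp, a signalling adaptor of myeloid cells, stood at 24.6, 19.7 and 27.2 CPM in tissue and 1.06, 1.73 and 2.85 CPM at day 3 (log2 difference -3.14 ± 0.23, adjusted p = 7.18e-06). Cd74, the class II chaperone, fell from 10.9 ± 0.946 to 0.906 ± 0.559 CPM. Csf1r, the macrophage growth factor receptor, stood at 5.88, 4.27 and 6.61 CPM in tissue and 3.21, 5.23 and 6.08 CPM at day 3 and did not pass, so that its groups overlapped while those of Tyrobp were apart. Ptprc, carried by all leukocytes, was under the filter. Hba-a1, an alpha globin, fell and stood at 22.9, 15.4 and 27.1 CPM in tissue and 0, 0.258 and 0 CPM at day 3. Alas2, the haem enzyme of erythroid cells, stood at 5.75, 4.13 and 8.03 CPM in tissue and 43.0, 40.9 and 52.7 CPM at day 3 (log2 difference 2.77 ± 0.20, adjusted p = 6.92e-06). Alas2 and Hba-a1 thus moved in opposite directions.

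**Figure D4:**
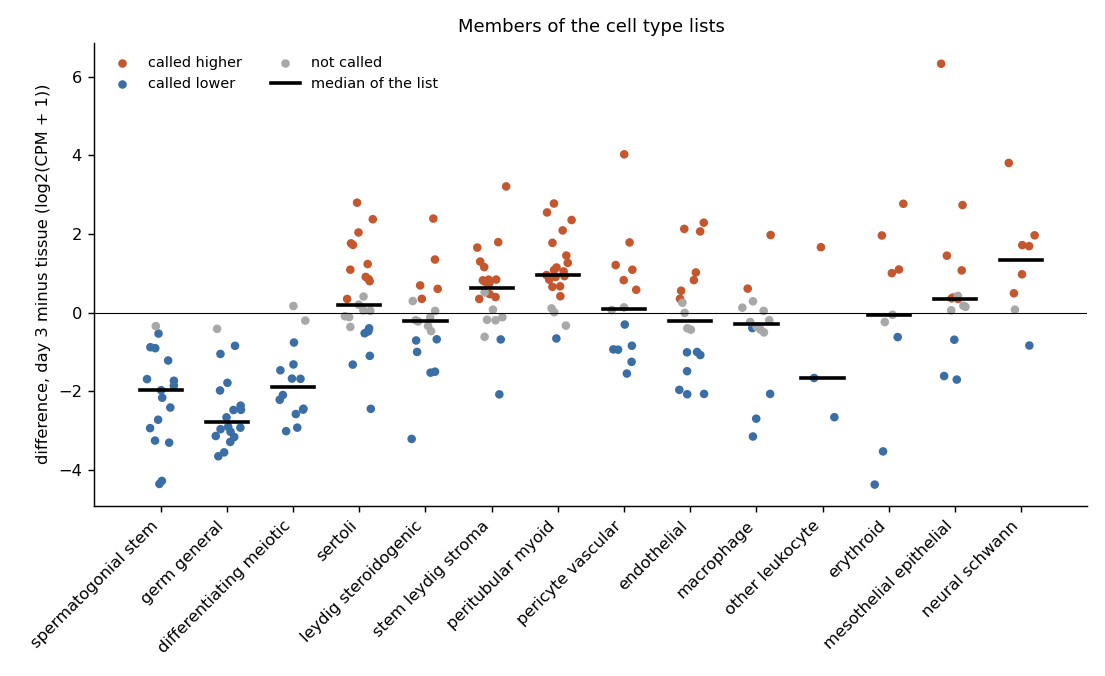
Difference between day 3 and tissue (y axis, log2(CPM + 1)) for each tested member of the 14 cell type lists, coloured by the limma call, with a black line at the list's median. The 3 germ cell lists hold members called lower and none called higher, with medians of -2.78 to -1.88, while Leydig, endothelial, macrophage and erythroid lists spread to both sides of 0.

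Matrix genes rose. Among fibrillar collagens and their partners, 28 of 41 tested members rose and 3 fell, a count of falls that was 5 without day 3 replicate 3. The median was 0.91 and the summed level 13700 to 15050 CPM in tissue and 26070 to 27070 CPM at day 3. Bgn, or biglycan, a small proteoglycan that binds collagen, stood at 667, 629.6 and 620 CPM in tissue and 4190, 4324 and 4001 CPM at day 3 (log2 difference 2.71 ± 0.08, adjusted p = 1.02e-07). Col8a1, a short-chain network collagen, stood at 0.219, 0.229 and 0.461 CPM in tissue and 118, 99.8 and 104 CPM at day 3 (log2 difference 6.38 ± 0.13, adjusted p = 1.32e-08). Fn1, fibronectin, stood at 193, 170 and 184 CPM in tissue and 1333, 1399 and 720.1 CPM at day 3 (log2 difference 2.59 ± 0.22, adjusted p = 1.61e-05). The groups were apart in each, although day 3 replicate 3 was the lowest of its group in Fn1 and in Col12a1, a fibril-associated collagen at 7.81, 7.71 and 5.86 CPM in tissue and 113, 143 and 68.3 CPM at day 3. The abundant interstitial collagen Col1a1 rose by less, from 2010.2 ± 152 to 3625 ± 472 CPM (log2 difference 0.84 ± 0.12, adjusted p = 0.000316). Col6a1 and Col6a2, of the beaded filaments, differed by 0.19 ± 0.10 and 0.12 ± 0.11 and did not pass, and Ccn1, a matricellular protein, fell from 1534 ± 65.4 to 308 ± 16.7 CPM (log2 difference -2.31 ± 0.08, adjusted p = 1.69e-07).

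Enzymes that mature the matrix rose with it, as 21 of 32 tested members rose and 8 fell. Lox, lysyl oxidase, which crosslinks collagen and elastin, stood at 25.6, 25.9 and 23.8 CPM in tissue and 399, 450.3 and 376 CPM at day 3 (log2 difference 3.97 ± 0.09, adjusted p = 1.32e-08), a mean 16.3 times higher at day 3. Pcolce, which speeds the cutting of procollagen, rose from 236 ± 27.8 to 1084 ± 176 CPM, and Adamts2, which cuts it, from 48.4 ± 3.98 to 204 ± 5.24 CPM. The proteoglycan-cutting Adamts1, Adamts4 and Adamts9 fell, with differences of -1.29 ± 0.17, -1.11 ± 0.15 and -1.10 ± 0.12, and Mmp14, a membrane collagenase, stood at 488, 499 and 484 CPM in tissue and 534, 473 and 550.5 CPM at day 3 and did not pass. Of basement membrane genes, 9 of 21 tested members rose and 5 fell, or 2 without tissue replicate 1. Col4a1, a widespread collagen IV chain, stood at 2029, 1702 and 1863 CPM in tissue and 3694, 3306 and 3702 CPM at day 3 (log2 difference 0.94 ± 0.10, adjusted p = 6.81e-05). Nid1, which links laminin to collagen IV, rose from 973 ± 40.6 to 2075 ± 311 CPM (log2 difference 1.08 ± 0.12, adjusted p = 6.39e-05). The collagen IV chain Col4a4, in contrast, stood at 931, 836 and 881 CPM in tissue and 339, 444 and 381 CPM at day 3 (log2 difference -1.19 ± 0.10, adjusted p = 1.86e-05), and Col4a3 fell with it (-0.61 ± 0.12). Collagen IV chains thus moved apart, Col4a1 up and Col4a3 and Col4a4, which join in 1 trimer, down. Hspg2, or perlecan, stood at 299, 240 and 291 CPM in tissue and 398, 455 and 124 CPM at day 3 and did not pass. Day 3 replicate 3 was far below the rest, and without it the difference was 0.63 and passed.

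Adhesion and cytoskeleton genes rose as well. Among junction and integrin genes, 23 of 33 tested members rose and 5 fell, with the highest median of the programme lists at 1.18. Itga3, a laminin-binding integrin, stood at 27.3, 23.4 and 22.2 CPM in tissue and 164, 162 and 159 CPM at day 3 (log2 difference 2.69 ± 0.09, adjusted p = 1.78e-07). Cdh3, P-cadherin, stood at 61.1, 53.8 and 64.1 CPM in tissue and 346, 386 and 397 CPM at day 3 (log2 difference 2.64 ± 0.09, adjusted p = 1.78e-07). The groups were far apart in both. Cdh1, E-cadherin, which spermatogonia carry, fell from 16.2 ± 3.56 to 0.889 ± 0.82 CPM, and the connexin gene Gja1 stood at 199, 218 and 208 CPM in tissue and 216, 227 and 207 CPM at day 3 (adjusted p = 0.524). Of actin and serum response factor genes, 21 of 31 tested members rose and 2 fell. Actn1, an actin crosslinker, rose from 115 ± 7.89 to 367 ± 11.1 CPM and the calcium-binding S100a6 from 5.72 ± 1.24 to 117 ± 42.2 CPM. Actb, beta-actin, stood at 3781, 3801 and 3731 CPM in tissue and 3662, 3865 and 3908 CPM at day 3 and did not pass, and Actg1, gamma-actin, fell from 1847 ± 16.7 to 1089 ± 10.9 CPM. Of targets of YAP, which is active on stiff matrix, 14 of 22 tested members rose and 5 fell. Ankrd1 rose from 1.33 ± 0.674 to 17.7 ± 2.37 CPM and Lats2 from 87.9 ± 4.92 to 216 ± 7.54 CPM, while the immediate early target Ccn1 fell and Ccn2, the other classic target, stood at 297, 312 and 297 CPM in tissue and 342, 335 and 323 CPM at day 3 (adjusted p = 0.0844, and 0.0292 without day 3 replicate 3). The TEAD motif GGAATG was in 4 of 11 promoters of the targets that rose (36.4%), against 10.9% of all genes tested. No such share was taken for the targets that fell, so it does not bear on the direction of change.

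In the TGF-beta and BMP families, 20 of 38 tested members rose and 12 fell. Among ligands, Bmp3, an antagonistic BMP, stood at 0.614, 1.79 and 1.09 CPM in tissue and 186, 145 and 115 CPM at day 3 (log2 difference 6.12 ± 0.23, adjusted p = 2.31e-07). Tgfb2, a TGF-beta, stood at 17.4, 15.3 and 17.8 CPM in tissue and 205, 185 and 159 CPM at day 3 (log2 difference 3.36 ± 0.11, adjusted p = 1.69e-07). Day 3 replicate 3 was the lowest of its group in both, yet far above tissue. Inhba, which makes activin A, rose from 12.9 ± 1.92 to 55.3 ± 5.48 CPM. The receptor Tgfbr2 rose from 22.2 ± 2 to 73.9 ± 8.58 CPM. Among inhibitors and targets, the activin-binding Fstl3 stood at 101, 99.0 and 102 CPM in tissue and 11.8, 11.4 and 14.3 CPM at day 3 (log2 difference -2.92 ± 0.10, adjusted p = 2.06e-07), and Id1, Id2 and Smad6, known as BMP targets, fell, with differences of -1.49 ± 0.17, -2.74 ± 0.14 and -1.55 ± 0.15. Id3, another such target, named after its value was seen, rose (0.83 ± 0.20).

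**Figure D5:**
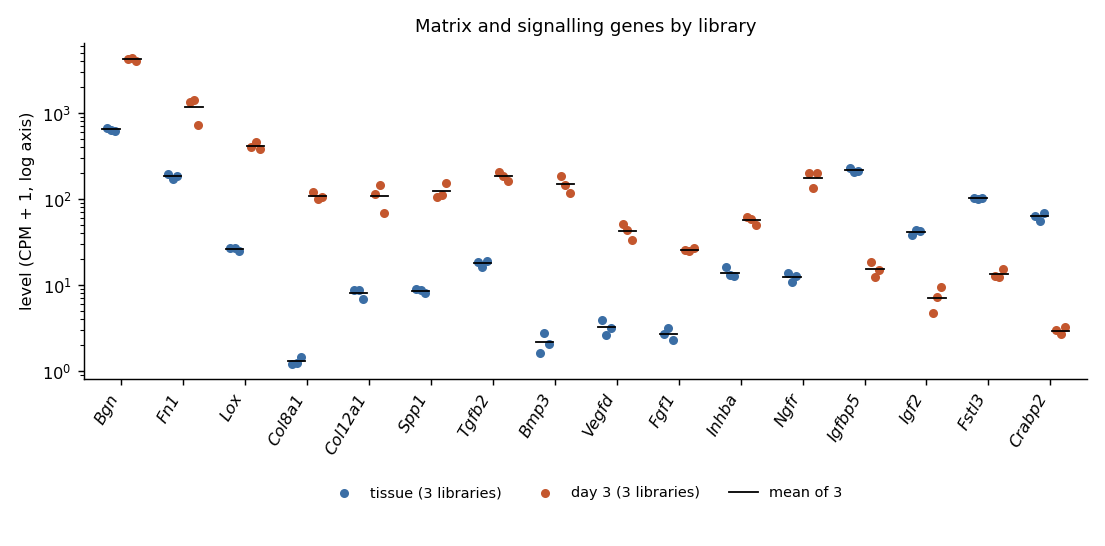
Levels (CPM + 1, log axis) of 16 matrix and signalling genes in each library, blue for tissue and orange for day 3, with a black line at the mean of 3 libraries. Bgn to Ngfr are higher in every day 3 library and Igfbp5, Igf2, Fstl3 and Crabp2 lower, with no overlap between the groups.

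Of growth factors that act on receptor tyrosine kinases and of these receptors, 23 of 34 tested members rose and 6 fell, beside 32.2 and 30.6% of all genes. Vegfd, a lymphatic growth factor, stood at 2.94, 1.6 and 2.14 CPM in tissue and 50.1, 42.9 and 32.04 CPM at day 3 (log2 difference 3.72 ± 0.20, adjusted p = 1.54e-06). Fgf1, a fibroblast growth factor, stood at 1.67, 2.16 and 1.28 CPM in tissue and 24.4, 23.6 and 25.6 CPM at day 3 (log2 difference 3.25 ± 0.15, adjusted p = 6.03e-07). Hgf, made by mesenchyme, stood at 3.64, 4.08 and 3.68 CPM in tissue and 30.8, 24.1 and 15.3 CPM at day 3 (log2 difference 2.29 ± 0.22, adjusted p = 3.46e-05). These ligands were under 5 CPM in each tissue library and over 15 CPM in each day 3 library. Met, the receptor of Hgf, fell from 30.9 ± 3.33 to 8.37 ± 2.84 CPM, and Fgfr3 from 65.2 ± 7.08 to 11.9 ± 4.32 CPM, while Fgfr2 rose from 16.5 ± 0.963 to 76.2 ± 13.8 CPM. Insulin-like growth factors and their binding proteins moved both ways. Igfbp5 stood at 225, 204 and 212 CPM in tissue and 17.4, 11.4 and 13.8 CPM at day 3 (log2 difference -3.84 ± 0.14, adjusted p = 2.06e-07). Igf2 fell from 40.2 ± 2.53 to 6.12 ± 2.36 CPM, Igfbp7 rose from 497 ± 30.3 to 1767 ± 95.9 CPM, and Igf1 stood at 35.6, 31.6 and 33.9 CPM in tissue and 24.6, 35.5 and 34.0 CPM at day 3 (adjusted p = 0.501). Ngfr, the low-affinity nerve growth factor receptor, which also marks stromal and Schwann cells, stood at 12.9, 9.77 and 11.8 CPM in tissue and 197, 132 and 199 CPM at day 3 (log2 difference 3.81 ± 0.17, adjusted p = 4.47e-07). Sox10, the defining factor of Schwann cells, was not among the tested genes.

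Of the Wnt pathway, 15 of 28 tested members rose and 6 fell. Wnt4 stood at 12.8, 11.7 and 14.2 CPM in tissue and 94.9, 90.3 and 102 CPM at day 3 (log2 difference 2.80 ± 0.10, adjusted p = 2.19e-07). The antagonists Dkk2 and Sfrp5 rose from 0.803 ± 0.153 to 11.2 ± 1.95 CPM and 0.239 ± 0.137 to 8.12 ± 4.26 CPM, and the target and factor Lef1 rose from 12.0 ± 2.14 to 32.5 ± 1.62 CPM. Fzd5, a receptor, fell from 38.3 ± 1.09 to 6.67 ± 0.65 CPM, and the Wnt-inactivating esterase Notum from 4.08 ± 0.669 to 0.273 ± 0.114 CPM. Wnt5a, a non-canonical ligand, stood at 116, 122 and 120.2 CPM in tissue and 126, 158 and 114 CPM at day 3 and did not pass, though it did without day 3 replicate 3 (0.24). In the hedgehog pathway, 6 of 11 tested members rose and 1 fell, or 2 without day 3 replicate 2. Dhh, the Sertoli cell ligand, rose from 132 ± 8.61 to 249.6 ± 27.2 CPM and its receptor Ptch1 from 211 ± 18.3 to 278 ± 34.5 CPM, while the target Gli1 fell from 47.7 ± 3 to 29.8 ± 6.22 CPM (log2 difference -0.68 ± 0.14, adjusted p = 0.00262). Of Notch genes, 5 of 17 tested members rose and 8 fell. Lfng, which modifies Notch, stood at 34.6, 30.6 and 28.8 CPM in tissue and 134, 115 and 155 CPM at day 3 (log2 difference 2.06 ± 0.12, adjusted p = 1.96e-06), while the ligand Dll4 and the targets Hey2 and Nrarp fell, with differences of -1.28 ± 0.16, -1.08 ± 0.17 and -1.33 ± 0.22. With a filter of 5 CPM 3 Notch genes fell.

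In the retinoic acid system, 5 of 16 tested members rose and 7 fell. Crabp2, which carries retinoic acid to its receptor, stood at 63.0, 54.4 and 67.7 CPM in tissue and 1.96, 1.7 and 2.22 CPM at day 3 (log2 difference -4.40 ± 0.13, adjusted p = 1.09e-07). Crabp1, its relative, stood at 28.9, 23.9 and 27.9 CPM in tissue and 1.06, 2.21 and 2.48 CPM at day 3 (log2 difference -3.29 ± 0.21, adjusted p = 3.03e-06). The groups were apart in both. Stra6, the retinol importer, and Rdh10, a retinol dehydrogenase, fell from 98.1 ± 3.98 to 34.2 ± 3.78 CPM and 63.7 ± 1.74 to 23.9 ± 1.29 CPM. Cyp26b1, which breaks retinoic acid down, rose from 189 ± 8.45 to 363 ± 20.9 CPM (log2 difference 0.94 ± 0.07, adjusted p = 1.01e-05). The receptors Rarg, Rara and Rxra (0.92 ± 0.20, 0.39 ± 0.08 and 0.46 ± 0.08) and Aldh1a1, which makes retinoic acid (0.37 ± 0.08), also rose, and the summed level of the list was 2570 to 2685 CPM in tissue and 2985 to 3304 CPM at day 3.

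Lysosomal genes rose. In the lists of glycolysis, cholesterol and fatty acids, neither rises nor falls exceeded the shares over all genes (32.2 and 30.6%). Of the lysosomal list, 19 of 24 tested members rose and 0 fell, with a median of 0.66 and a summed level of 4044 to 4240 CPM in tissue and 6366 to 6917 CPM at day 3. The protease Ctsl stood at 354, 336 and 338 CPM in tissue and 809.9, 726 and 846 CPM at day 3 (log2 difference 1.21 ± 0.08, adjusted p = 3.81e-06). The lipase Lipa stood at 127, 132 and 122 CPM in tissue and 283, 308 and 275 CPM at day 3 (log2 difference 1.18 ± 0.07, adjusted p = 2.92e-06). Each day 3 library lay above each tissue library in both. In glycolysis and hypoxia, 7 of 28 tested members rose and 5 fell, with 3 that fell without tissue replicate 2 or in the fit of all 12 baseline libraries. Ldha, lactate dehydrogenase, stood at 553, 528 and 559.6 CPM in tissue and 501, 519 and 576 CPM at day 3, and Eno1, or enolase, at 348, 355 and 373 CPM in tissue and 355, 360.3 and 376 CPM at day 3. Neither passed, and the groups overlapped in both, while Pfkfb3, an activator of glycolysis, fell from 33.5 ± 2.78 to 11.3 ± 1.22 CPM. In cholesterol synthesis, 8 of 25 tested members rose and 6 fell, with 4 that rose without tissue replicate 1 or 3 and 5 without day 3 replicate 1. Abcg1, which exports cholesterol, rose from 98.8 ± 2.21 to 410.0 ± 27.0 CPM (log2 difference 2.04 ± 0.07, adjusted p = 2.12e-07), and Insig1, which holds synthesis back, fell from 270.2 ± 14.3 to 85.9 ± 6.94 CPM. In fatty acid metabolism, 7 of 23 tested members rose and 7 fell, with the lipase Lpl higher, from 8.65 ± 0.242 to 52.8 ± 1.15 CPM, and Cpt1a, the gate of fatty acid oxidation, lower, from 263 ± 7.55 to 119 ± 19.11 CPM.

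A few genes lay on opposite sides of 1 CPM in the groups, a level well above that of 1 read. At under 1 CPM in every tissue library and at least 5 CPM in every day 3 library there were 17 genes, and the other way round 30, a description with no test. Among the 17 were the mesothelial membrane protein gene Lrrn4, at 0.307, 0.642 and 0.395 CPM in tissue and 104, 123 and 118 CPM at day 3, with every day 3 library far above tissue. Itih4, an acute phase protein gene of the liver, stood at 0, 0 and 0.132 CPM in tissue and 15.1, 15.1 and 19.9 CPM at day 3. Of the mesothelial and epithelial markers, which include Lrrn4, 6 of 14 tested members rose and 3 fell. Upk1b rose from 0.733 ± 0.41 to 10.4 ± 1.35 CPM and Bnc1, a mesothelial factor, fell from 2.87 ± 0.783 to 0.181 ± 0.131 CPM. Krt8, a keratin, stood at 304, 317 and 309 CPM in tissue and 345, 283 and 346 CPM at day 3, and Upk3b and Msln were under the filter. Among the 30 was Vil1, or villin, an actin-bundling protein of epithelia, at 13.1, 12.3 and 16.4 CPM in tissue and 0.641, 0.442 and 0.264 CPM at day 3. Pnmt, which makes adrenaline, stood at 14.7, 10 and 12.5 CPM in tissue and 0.302, 0.663 and 0.264 CPM at day 3. Ptpru, a receptor phosphatase, stood at 15.96, 16.8 and 12.8 CPM in tissue and 0.377, 0.553 and 0.582 CPM at day 3. These 3 genes went from over 10 CPM in each tissue library to under 1 CPM in each day 3 library.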

How the data were processed

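Messenger RNA was selected on poly-T beads and made into non-directional libraries, per the labels' protocols, so reads of overlapping or antisense genes cannot be told apart. Reads were aligned with STAR to mRatBN7.2, per the submitters' processing notes. The counter and the annotation are not given in the sources used here. The table deposited by the authors holds CPM. Whole reads were recovered from 100% of its values within 0.01 read, and 12 other per-sample columns were not used. Of 21425 gene names, 19696 matched a RefSeq symbol or synonym.

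Differences of log2(CPM + 1) were tested with limma 3.58.1 (R 4.3.3, trend, 6 libraries, no block) for the 12791 genes with at least 1 CPM in at least 3 libraries, with Benjamini-Hochberg adjustment and a threshold of 0.05. A difference on this scale understates the change of low genes. Fold changes in words are ratios of mean CPM. The procedure was also run on simulated data. Few genes were changed there and no library stood apart, unlike in these data, so the run sets no error rate for these calls. Alternatives were pseudocounts of 0.25 and 5 CPM, no filter and one of 5 CPM, all 12 baseline libraries, TMM scaling, edgeR 4.0.16 quasi-likelihood and DESeq2 1.42.0 on recovered reads, a replicate block, and leaving out each library.

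Genes named are the 12 called with the largest rise and the 12 with the largest fall (groups apart, higher mean at least 5 CPM). From each of 51 lists, up to 6 called members in its main direction, 4 in the other and 3 not called were taken. A panel of markers and the 10 most abundant genes of each group were added. So were the 12 leading genes under 1 CPM in every tissue library and at least 5 CPM in every day 3 library, and the 12 the other way round. Some items are not reported here. The members and lists were chosen with earlier results of these data known. No label says that tissue and day 3 replicates of the same number pair, so they were not treated as pairs. Replicates of the same number correlated in their deviations at 0.009, 0.233 and 0.14, and those of different numbers at -0.221 to 0.095.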

Additional observations from a re-analysis of the deposited data

How the results depend on the processing

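The count of 4123 genes higher at day 3 was between 3706 and 4189 and that of 3908 lower between 3241 and 4404 when the pseudocount, filter, scaling or tool was changed one at a time or all 12 baseline libraries were fitted. Leaving out each library in turn gave 3573 to 4388 higher and 3358 to 4430 lower, with 1247 to 1310 at least 2-fold higher and 1028 to 1140 at least 2-fold lower. With a pseudocount of 5 CPM the at least 2-fold counts were 788 higher and 508 lower, and with a filter of 5 CPM, which tested 10864 genes, 701 were at least 2-fold lower. Other settings gave larger counts at this threshold. There were 1437 higher and 1263 lower with a pseudocount of 0.25 CPM, 1474 and 1328 with edgeR, and 1483 and 1329 with DESeq2. The fit with a replicate block, whose numbers were not shown to pair the libraries, gave 4246 higher, 4105 lower, 1279 at least 2-fold higher and 1059 at least 2-fold lower. Over all settings the median difference lay between -0.028 and 0.027 and the share of calls that were higher between 48.7 and 53.3%. No named gene that was called changed direction in any alternative. Between 0 and 19 of the 515 to 575 named genes tested lost their call in a setting and between 0 and 37 gained one, the most without day 3 replicate 3. Member counts moved by over 1.5 times in 18 of 51 lists, mostly through the 5 CPM filter or by 1 left-out library. Depth limits the genes near the filter most, since 1 read was worth 0.0329 to 0.0529 CPM.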

Other observations

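Gene groups that belong to no cell type or pathway above gave further values. Of complement, acute phase and serpin genes, 5 of 14 tested members rose and 2 fell. A2m, a broad protease inhibitor, stood at 1.05, 0.596 and 0.888 CPM in tissue and 42.3, 27.3 and 17.4 CPM at day 3 (log2 difference 3.94 ± 0.28, adjusted p = 5.83e-06). The complement proteases C1s and C1r rose from 44.4 ± 5.04 to 183 ± 27.4 CPM and 133 ± 9.85 to 388 ± 30.0 CPM. Hp, or haptoglobin, fell from 3.39 ± 0.63 to 1.64 ± 0.456 CPM, and the fall of Lcn2 (-0.45 ± 0.16) was lost in 7 of 15 alternatives. Of Hox genes, 5 of 9 tested members rose and 0 fell, with 2 that rose under a filter of 5 CPM. Hoxd4 rose from 1.57 ± 0.05 to 4.92 ± 1.16 CPM and Hoxd10 from 7.45 ± 1.14 to 17.7 ± 0.491 CPM. Of tricarboxylic acid cycle genes, 3 of 20 tested members rose and 8 fell, where Pdha1, the entry enzyme of pyruvate, rose by 0.69 ± 0.08 and its partner subunit Pdhb differed by -0.49 ± 0.09 and fell.

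Of 25 markers of lymphocytes, granulocytes and mast cells, 3 were tested, of which 1 rose and 2 fell, with a median difference of -1.66. The member that rose was Cd79a, a B cell gene, from 7.05 ± 0.843 to 24.5 ± 1.72 CPM. Of nerve and Schwann cell markers, 6 of 8 tested members rose and 1 fell. Tubb3, a neuronal tubulin, rose from 23.1 ± 2.71 to 78.1 ± 2.75 CPM and Erbb3, a neuregulin receptor, from 2.88 ± 0.491 to 14.1 ± 0.751 CPM. Among erythroid markers, 4 of 9 tested members rose and 3 fell.

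Rlim, an X-linked ubiquitin ligase gene, was at 0.263, 0.183 and 0.0987 CPM in tissue and 13.9, 10.8 and 12.6 CPM at day 3. It was at a mean of 0.104 CPM at day 5 and 0.144 CPM at day 7 of the same culture, so that 3 day 3 libraries stood apart from the isolate and from the later days. Lrrn4 was at a mean of 99.3 CPM at day 5 and 101 CPM at day 7, and Foxl2 had means of 16.6 and 35.0 CPM. These later values were not tested.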
